A study of Mus musculus with 9 samples.

Results

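This comparison sets tumours of mice given free lenvatinib together with an antibody against PD1 beside Control tumours of the same study. The members are every library of these groups, 3 of each, so 6 of the 9 libraries in the series. The tested features are the 15353 of 32761 genes whose mean over the 9 libraries was at least 0.5 FPKM, that is, fragments scaled to transcript length and to the mapped fragments of the library. The mice carried in-situ hepatocellular carcinoma grown from Hepa1-6-luc, a mouse hepatoma line marked with luciferase. Of 6 treatment groups in the study 3 were sequenced, and all tumours were taken on day 14.

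The treated group, Lenvatinib+anti-PD1, received free lenvatinib by tail vein every 3 days, at a concentration matched to that of the nanoclusters, and anti-PD1 at 50 µg per injection every 4 days. The labels do not tell what the Control mice received. The remaining group, Co+Len@OVA+anti-PD1, had drug-loaded nanoclusters at 2 mg/mL and the same antibody; it enters the fit to estimate the spread of each gene, and Co is left unexplained in the labels. No sequenced group had the drug or the antibody alone, so the effects of the pair cannot be told apart. The labels do not tell the strain or age of the mice, or whether a library came from 1 tumour or a pool. Poly(A) RNA was made into strand-marked libraries and read as 2 × 150 bases.

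Lenvatinib blocks several receptor tyrosine kinases, those for VEGF, those for FGF, PDGF receptor alpha, KIT and RET. In liver cancer it is known for acting on tumour vessels through the VEGF receptors and on tumour cells through the FGF receptors, which signal through the ERK pathway. PD1 is an inhibitory receptor on T cells, and blocking it releases their killing and interferon gamma production, which in turn switches on interferon target genes in tumour and myeloid cells. A hepatoma is a cancer of hepatocytes, the cells that secrete most plasma proteins and carry the cytochrome P450 enzymes, and such tumours keep part of that programme.

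The labelled tissue was checked against its markers. Afp, the fetal serum protein that hepatomas secrete, was at 379, 339 and 385 FPKM in the treated libraries 1, 2 and 3 and at 439, 368 and 404 FPKM in Control libraries 1, 2 and 3. Alb, which encodes serum albumin, was at 2019.5, 1937 and 2084 FPKM and 3386, 1686 and 2285 FPKM in the same order, and Hnf4a, the main hepatocyte transcription factor, at 26.3, 25.2 and 27.8 FPKM and 27.3, 28.96 and 27.9 FPKM. None of these passed the test, with adjusted p-values of 0.269 for Afp, 0.528 for Alb and 0.401 for Hnf4a. Gpc3, a glypican used as a marker of human liver cancer, was low, at 0.525, 6.62 and 2.71 FPKM and 1.40, 1.41 and 1.62 FPKM.

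Several libraries stood apart. Library 3 of each group looked like a mixture of libraries 1 and 2: among genes that differed over 4-fold between treated libraries 1 and 2, the value in library 3 lay between them for 277 of 284 genes (97.5%), and the same held for 332 of 350 genes (94.9%) in Control and 271 of 278 (97.5%) in Co+Len@OVA+anti-PD1. If the third libraries are not independent tumours, the spread is understated, so results are also given for libraries 1 and 2 alone, and p-values measure only the spread between these samples, which may be technical. Control 1 was over 2-fold below both other Control libraries for 725 genes, and treated 1 was over 2-fold below both other treated libraries for 347. Total FPKM per library ran from 3.32e+05 to 3.73e+05, with 23575 to 26298 genes above 0. The read numbers behind these values were not used here, so the depth is unknown.

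Between the treated and Control libraries 3636 genes changed at an adjusted p under 0.05, 23.7% of those tested. Of them 2120 rose (13.8% of the genes tested) and 1516 fell (9.87%). The fitted change was over 2-fold for 417 genes that rose and 236 that fell, and over 4-fold for 102 and 28. The 3 treated values lay above all 3 Control values for 4007 genes (26.1%) and below them for 2666 (17.4%). The median log2 difference over all genes tested was 0.05. Differences below are treated minus Control on the scale of log2(FPKM + 0.5), which understates the change of low genes, and errors are standard errors of the fit with 3 libraries in each group.

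With libraries 1 and 2 alone, 53 genes passed (0.345%), 33 higher (0.215%) and 20 lower (0.130%), and all 53 had also passed with 9 libraries. At an unadjusted p under 0.05, the same 4 libraries gave 1521 genes higher (9.91%) and 1039 lower (6.77%). All 3636 changed genes had the same fitted direction in libraries 1 and 2. These libraries are part of the 9-library fit, and library 3 looked like a mixture of them. This agreement and the overlap of the 53 genes are therefore not independent checks. Leaving out treated 1 gave 11.0% higher and 6.25% lower, treated 2 gave 8.94% and 6.75%, and treated 3 gave 6.91% and 5.84%. Without Control 1 the shares were 15.5% and 17.4%, without Control 2 they were 13.3% and 9.31%, and without Control 3 they were 8.49% and 5.44%. Leaving out library 3 of Co+Len@OVA+anti-PD1 gave 10.4% and 7.55%.

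**Figure D1:**
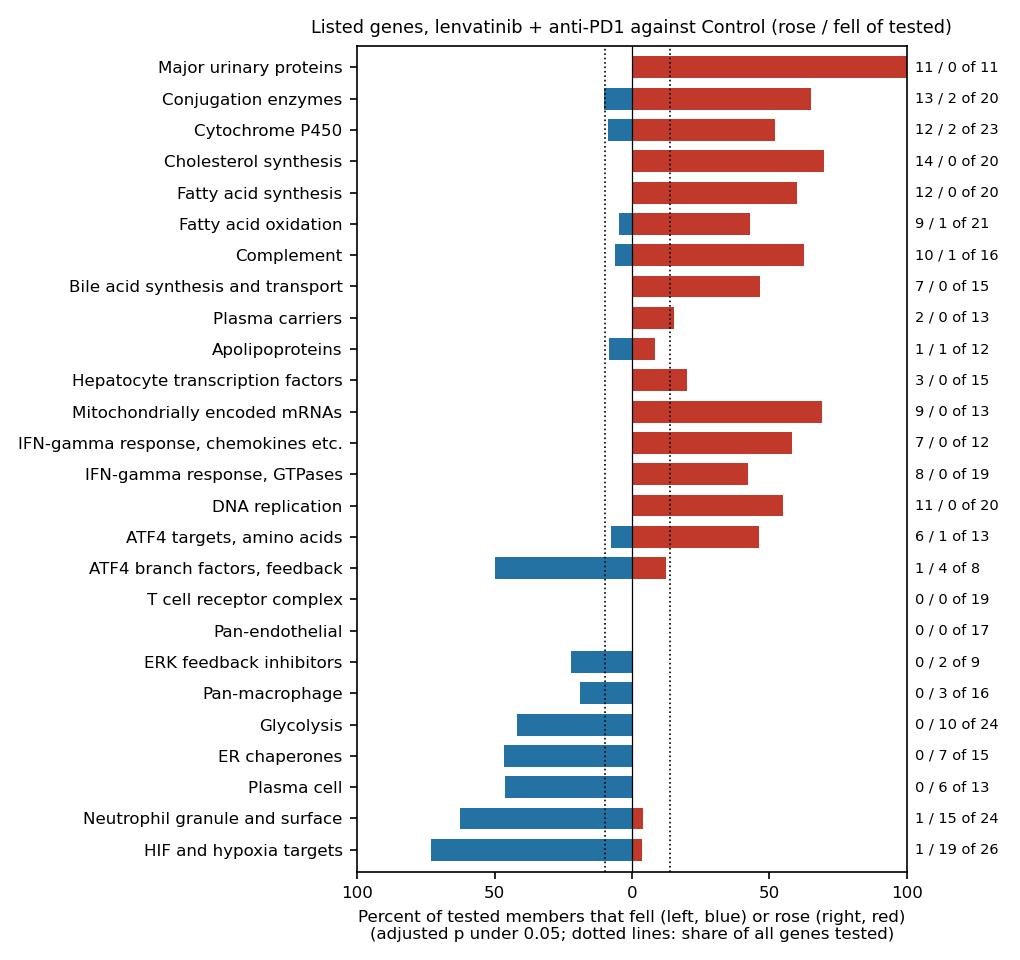
Percent of the tested members of each gene list that rose (bars to the right) or fell (bars to the left) in the treated libraries against Control, at an adjusted p under 0.05. Dotted lines mark the shares over all genes tested, 13.8% higher and 9.87% lower. The major urinary protein bar reaches the right end of the axis, and the T cell receptor and pan-endothelial lists have no bar.

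The drug's own target receptors passed at about the share of all genes. Of 9 tested genes for its target receptor kinases 1 rose and 1 fell (11.1% each, against 13.8% and 9.87% of all genes), with a median log2 difference of -0.20 against 0.05 over all genes. Fgfr1 rose, from 7.46, 8.54 and 8.26 FPKM in Control to 9.81, 11.2 and 10.8 FPKM in treated libraries (log2 difference 0.37 ± 0.07, adjusted p = 0.0101). Flt4, the receptor of lymphatic vessels, fell from 2.32, 3.49 and 3.04 FPKM to 1.78, 1.84 and 2.02 FPKM (log2 difference -0.52 ± 0.13, adjusted p = 0.0226). Kdr, the main VEGF receptor of blood vessels, was at 0.666, 1.59 and 1.00 FPKM in treated and 0.221, 1.19 and 0.997 FPKM in Control libraries, and these ranges overlap (adjusted p = 0.532). Fgfr4, the FGF receptor of hepatocytes, was at 15.2, 13.04 and 14.5 FPKM and 15.5, 12.1 and 13.3 FPKM, also overlapping. The receptor genes that fell numbered 3 without Control 1 and 2 without Co+Len@OVA+anti-PD1 library 2, and none fell without treated 1, treated 3 or Control 3.

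Among 12 tested ligands of these receptors 1 rose and 4 fell. Fgf21, a stress hormone of the liver that belongs to the FGF family, was at 2.42, 2.67 and 2.92 FPKM in treated and 0.201, 0.136 and 0.242 FPKM in Control libraries (log2 difference 2.19 ± 0.15, adjusted p = 0.000107). The highest Control library was far below the lowest treated library. Vegfa fell from 96.7, 58.1 and 67.2 FPKM to 42.3, 43.6 and 44.3 FPKM (log2 difference -0.73 ± 0.16, adjusted p = 0.0160), and Control 1 was the highest library. Pgf, placental growth factor, fell to 0.337, 0.454 and 0.578 FPKM from 1.71, 1.51 and 1.38 FPKM (log2 difference -1.09 ± 0.15, adjusted p = 0.00216). Pdgfc and Fgf1 fell by 0.65 and 0.50 on the log2 scale.

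Genes switched on by the ERK pathway went both ways. Of 28 tested, 4 rose (14.3%) and 6 fell (21.4%), against 13.8% and 9.87% of all genes, so the rises were near the share of all genes. The median log2 difference was -0.05. Those that fell included the immediate early factor Egr1, at 38.97, 49.01 and 42.2 FPKM in treated and 194, 63.8 and 108 FPKM in Control libraries (log2 difference -1.34 ± 0.33, adjusted p = 0.0233), where Control 1 was the highest library. Ier3 fell by 0.88, Areg, an EGF receptor ligand, by 0.77, and the ERK phosphatase Dusp4 by 0.73 on the log2 scale. Dusp6, the phosphatase most often read as an ERK marker, was at 127, 113 and 131 FPKM and 148, 152 and 147 FPKM, a log2 difference of -0.27 that did not pass (adjusted p = 0.0619). Etv4 (adjusted p = 0.605) and the feedback inhibitor Spry2 (adjusted p = 0.211) did not pass either, whereas Epha2 rose by 0.58 and the cyclin gene Ccnd1 by 0.43. The number that fell was 2 without treated 1, and 1 without treated 2, treated 3 or Control 3; the number that rose was 2 without treated 1 or treated 3.

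Pan-endothelial genes, the general markers of vessels, did not pass. None of 17 pan-endothelial markers passed (in libraries 1 and 2 alone none passed at an unadjusted p under 0.05), and their median log2 difference was 0.09. With median-of-ratios, upper quartile or trimmed mean scaling 1 rose, as without Control 1 or Control 2, and 1 fell without Control 1. Their summed level was 89.1, 112 and 102 FPKM in treated and 73.2, 111 and 101 FPKM in Control libraries. Pecam1, the endothelial adhesion molecule, was at 2.33, 5.11 and 3.66 FPKM and 1.78, 7.98 and 6.03 FPKM (adjusted p = 0.676). In bulk tissue fewer cells of a type and less RNA per cell cannot be told apart. Of 17 genes listed as markers of tip cells, the cells that lead a sprouting vessel, 4 fell and 1 rose. The shares were 23.5% and 5.88%, against 9.87% and 13.8% of all genes. Adm, described below, was among those that fell, and Adm and Pdgfb are counted again in the hypoxia list. Which cells expressed these genes was not tested. Pecam1 was lowest in Control 1 among the Control libraries, whereas Ramp3 was level over them. Ramp3, a co-receptor for adrenomedullin, fell from 150.2, 147 and 150.2 FPKM to 54.2, 45.1 and 50.7 FPKM (log2 difference -1.57 ± 0.09, adjusted p = 5.58e-05), with an adjusted p of 0.0408 in libraries 1 and 2 alone. The ion channel subunit Kcne3 and the VEGF co-receptor Nrp2 fell by 1.20 and 0.62, and Pdgfb, which recruits pericytes, rose by 1.05. Without Control 1 the number of tip cell genes that fell was 9; without treated 1, treated 3 or Control 3 it was 2.

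Matrix genes were mixed and uneven between libraries. Of 14 collagen, fibronectin and Sparc genes only Fn1 fell (by 0.51), although the median log2 difference was -0.69; Col1a1 was at 31.5, 162 and 82.3 FPKM and 71.7, 149.7 and 123 FPKM, so that treated 2 lay above every Control library. Of 9 matrix proteases and inhibitors 4 fell, led by the gelatinase gene Mmp9, at 0.809, 1.22 and 1.01 FPKM in treated and 2.35, 9.64 and 7.12 FPKM in Control libraries (log2 difference -2.01 ± 0.54, adjusted p = 0.0308). The others were Timp3, Mmp14 and Timp1, by 0.63, 0.60 and 0.53. That count was 1 without Control 2, Control 3, treated 1, treated 3 or Co+Len@OVA+anti-PD1 library 3, and 2 without treated 2. Of 8 genes of liver sinusoidal endothelium Fcgr2b and Gata4 fell, by 1.09 and 0.34; none fell without treated 3 and 1 without treated 1 or Control 3. Without treated 2 or Control 1 the collagen group held 4 falls.

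Targets of the hypoxia-inducible factors fell broadly. Of 26 tested genes 19 fell and 1 rose, against 9.87% of all genes that fell, with a median log2 difference of -0.72. In libraries 1 and 2 alone 1 passed, Adm, while 18 fell at an unadjusted p under 0.05. Adm encodes adrenomedullin, a peptide that dilates vessels and is made in low oxygen. It was at 0.962, 1.12 and 0.998 FPKM in treated and 5.54, 4.69 and 4.61 FPKM in Control libraries (log2 difference -1.83 ± 0.10, adjusted p = 4.79e-05), and its adjusted p in libraries 1 and 2 alone was 0.0377. The groups did not overlap, and Adm was 3.56-fold lower in the treated libraries by the fitted difference. Ddit4, which restrains the growth kinase mTOR, fell from 603, 343 and 423 FPKM to 138, 123 and 136 FPKM (log2 difference -1.74 ± 0.18, adjusted p = 0.000666). Bnip3, which marks mitochondria for removal, fell from 273, 197 and 215 FPKM to 108, 104 and 111 FPKM (log2 difference -1.07 ± 0.11, adjusted p = 0.000638).

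The same list held regulators and a matrix enzyme. Lox, which crosslinks collagen, fell by 1.97 on the log2 scale. Among the 8 oxygen sensors and regulators 5 fell (3 without treated 2), including the prolyl hydroxylase Egln3 by 0.80, Bhlhe40 by 0.96, Hilpda, which blocks fat breakdown in lipid droplets, by 0.92, and Hif1a itself, the oxygen-regulated subunit, by 0.47. Car9, a surface carbonic anhydrase often used to mark hypoxic tumour, fell from 17.5, 17.9 and 17.4 FPKM to 12.5, 11.2 and 13.2 FPKM (log2 difference -0.50 ± 0.07, adjusted p = 0.00231). Egln1, another prolyl hydroxylase, did not pass, at a log2 difference of -0.12. Pdgfb was the member that rose.

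The promoter of Adm is shown because it was the member that passed in both fits. The window runs from 250 bases before to 50 after the RefSeq start site in GRCm38.p6, chr7:110627407-110627706 on the plus strand, printed 5′ to 3′ with each core of the hypoxia response element, ACGTG or GCGTG on either strand, in capitals.
Adm: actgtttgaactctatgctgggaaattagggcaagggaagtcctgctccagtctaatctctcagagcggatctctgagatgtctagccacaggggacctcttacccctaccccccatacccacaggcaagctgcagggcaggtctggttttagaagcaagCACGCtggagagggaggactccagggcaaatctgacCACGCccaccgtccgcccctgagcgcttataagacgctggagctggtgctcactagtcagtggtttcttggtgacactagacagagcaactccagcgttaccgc
The core occurred 2 times here. It was found in windows of 19 of 20 list members that had one (95.0%). The share was 46.7% of all genes with a RefSeq window and 65.1% of tested genes with one. All 17 tested members with a window held it, of which 12 fell.

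Glycolysis genes, many of which the same factors drive, followed in part. Of 24 tested, 10 fell and none rose, with a median log2 difference of -0.37, and 9 fell at an unadjusted p under 0.05 in libraries 1 and 2 alone. Slc2a1, the glucose transporter of most tumours, was at 60.9, 54.8 and 63.1 FPKM in treated and 133, 96.4 and 111 FPKM in Control libraries (log2 difference -0.91 ± 0.12, adjusted p = 0.00149). Gpi1, the isomerase of the second step, fell from 156, 157 and 158 FPKM to 95.4, 100.4 and 97.99 FPKM (log2 difference -0.68 ± 0.05, adjusted p = 0.000202), with no overlap. Among the lower steps Pgk1, Pkm, Eno1 and Tpi1 fell by between 0.32 and 0.54 on the log2 scale, and Pfkfb3, which speeds up the pathway, fell by 0.90. Hk2, the inducible hexokinase of tumours, did not pass, at -0.37.

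**Figure D2:**
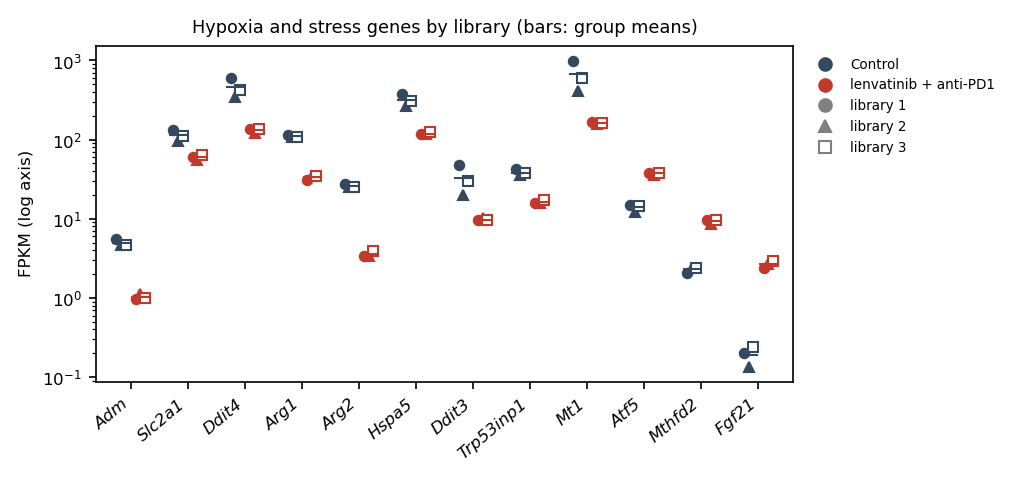
FPKM on a log axis of hypoxia, arginase, endoplasmic reticulum, ATF4, p53 and metallothionein genes in each treated (red) and Control (dark blue) library; circles, triangles and open squares are libraries 1, 2 and 3 and bars are group means. Arg2 lay at 3.39, 3.41 and 3.92 FPKM in treated and 27.2, 25.4 and 25.2 FPKM in Control libraries, while Atf5, Mthfd2 and Fgf21 lay higher in treated libraries.

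Chaperones of the endoplasmic reticulum, where secreted proteins fold, fell without exception among those that passed. Of 26 tested genes of the chaperone and unfolded protein response list 11 fell and none rose, with a median log2 difference of -0.27. In libraries 1 and 2 alone none passed after adjustment and 9 fell at an unadjusted p under 0.05; without Control 1 the number that fell was 17. Hspa5, the master chaperone BiP, was at 117, 118 and 124 FPKM in treated and 382, 267 and 309 FPKM in Control libraries (log2 difference -1.40 ± 0.12, adjusted p = 0.000276). Hsp90b1, its partner GRP94, fell from 262, 253 and 257 FPKM to 187, 178 and 190.3 FPKM (log2 difference -0.47 ± 0.05, adjusted p = 0.000858). The groups did not overlap for either gene, and the spread of Hsp90b1 within a group was small. P4hb, a disulfide isomerase, fell by 0.57 and Herpud1, which serves degradation, by 1.17. Canx and Ern1, a sensor of the unfolded protein response, did not pass, at 0.05 and 0.16.

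The promoters of Hspa5 and Hsp90b1 are shown because both carry the endoplasmic reticulum stress element, CCAAT followed 9 bases later by CCACG, in capitals on either strand. The windows are RefSeq GRCm38.p6, Hspa5 at chr2:34771840-34772139 on the plus strand and Hsp90b1 at chr10:86705395-86705694 on the minus strand.
Hspa5: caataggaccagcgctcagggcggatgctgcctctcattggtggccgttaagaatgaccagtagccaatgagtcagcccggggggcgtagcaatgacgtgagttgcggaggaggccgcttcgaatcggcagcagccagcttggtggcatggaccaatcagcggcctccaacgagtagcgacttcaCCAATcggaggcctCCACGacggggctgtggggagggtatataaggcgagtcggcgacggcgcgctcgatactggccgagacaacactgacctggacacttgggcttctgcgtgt
Hsp90b1: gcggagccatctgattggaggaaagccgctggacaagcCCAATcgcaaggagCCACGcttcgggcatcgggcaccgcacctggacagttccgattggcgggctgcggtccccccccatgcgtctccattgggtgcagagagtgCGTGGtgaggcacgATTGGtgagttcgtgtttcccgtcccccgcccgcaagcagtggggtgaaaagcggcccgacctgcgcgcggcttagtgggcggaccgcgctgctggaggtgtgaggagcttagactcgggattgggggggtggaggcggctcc
Hspa5 held 1 match and Hsp90b1 held 2. The letters were in 9 of 22 list members with a window (40.9%) and in 7 of 13 chaperones (53.8%). Among all genes with a window they were in 0.137%, 37 of 27025. Of the 9 tested members with the letters 6 fell, and of the 13 without them 3 fell.

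Genes of the ATF4 pathway, which answers amino acid shortage and misfolding, went both ways. Of its 8 transcription factor and feedback genes 4 fell and 1 rose. Ddit3, which encodes the pro-death factor CHOP, fell from 47.8, 19.9 and 29.8 FPKM to 9.52, 10.1 and 9.72 FPKM (log2 difference -1.59 ± 0.26, adjusted p = 0.00464), and Control 1 was the highest library. Ppp1r15a, Atf3 and Cebpb fell by 0.69, 0.60 and 0.60; 2 of the 4 falls were lost without treated 3 or Control 3. Atf5 rose, at 38.05, 36.1 and 38.3 FPKM in treated and 15.1, 12.3 and 14.5 FPKM in Control libraries (log2 difference 1.40 ± 0.08, adjusted p = 4.25e-05), and it passed in libraries 1 and 2 alone (adjusted p = 0.0360). Of 13 genes of amino acid synthesis and transport 6 rose and 1 fell. Mthfd2, a mitochondrial folate enzyme, rose from 2.07, 2.42 and 2.41 FPKM to 9.55, 8.64 and 9.76 FPKM (log2 difference 1.81 ± 0.09, adjusted p = 2.73e-05), with an adjusted p of 0.0307 in libraries 1 and 2 alone. The glycine transporter Slc6a9 and the proline enzyme Aldh18a1 rose by 1.43 and 1.13, while the leucine transporter Slc7a5 fell by 0.51. Atf4 itself was at 78.1, 77.6 and 82.98 FPKM and 94.7, 57.01 and 72.2 FPKM, with overlap.

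Drug-metabolising enzymes of hepatocytes rose. Of 23 cytochrome P450 and reductase genes 12 rose and 2 fell, with a median log2 difference of 1.12; in libraries 1 and 2 alone 1 passed and 9 had an unadjusted p under 0.05 on the higher side. Cyp2a5, which oxidises coumarin and nicotine, was at 135, 122 and 135 FPKM in treated and 10.7, 6.78 and 11.2 FPKM in Control libraries (log2 difference 3.74 ± 0.17, adjusted p = 2.10e-05); it passed in libraries 1 and 2 alone (adjusted p = 0.0190). Cyp1a2, the caffeine-clearing enzyme, rose from 4.76, 3.75 and 5.84 FPKM to 58.9, 49.6 and 58.6 FPKM (log2 difference 3.43 ± 0.27, adjusted p = 0.000222). By the fitted differences Cyp2a5 was 13.3-fold and Cyp1a2 10.7-fold higher, far outside the spread of either group. Cyp2f2 and Cyp2j5 rose by 2.69 and 2.11. Cyp2e1, the ethanol-oxidising form, was at 242, 252 and 254 FPKM in treated and 204, 24.7 and 90.8 FPKM in Control libraries, which did not overlap but did not pass (adjusted p = 0.111). Por, the reductase that feeds electrons to all of them, fell from 87.3, 70.2 and 77.03 FPKM to 31.8, 33.9 and 33.1 FPKM (log2 difference -1.23 ± 0.10, adjusted p = 0.000224), and Cyp1b1 fell by 1.78. The number of rises was 7 without treated 1, treated 2 or Control 3 and 6 without treated 3.

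Conjugation enzymes, which make drugs and bile pigments soluble, rose in 13 of 20 tested and fell in 2, with a median log2 difference of 0.88. In libraries 1 and 2 alone 4 passed, all higher, and 13 rose at an unadjusted p under 0.05. The glucuronosyltransferase Ugt2b5 rose from 6.22, 4.81 and 5.17 FPKM to 43.6, 38.7 and 45.4 FPKM (log2 difference 2.87 ± 0.12, adjusted p = 1.78e-05), and the sulfotransferase Sult2a8 from 0.478, 0.0862 and 0.306 FPKM to 9.06, 8.64 and 9.64 FPKM (log2 difference 3.64 ± 0.18, adjusted p = 2.79e-05). Neither gene overlapped between groups. Gstm3 and Ugt2b1 rose by 2.81 and 2.46, and the sulfotransferases Sult1d1 and Sult1a1 fell by 1.24 and 0.88. Gsta1 and Gsta2, named here after their values were seen, were the remaining members of the 4, at differences of 2.23 and 1.66. Many genes of these families are near-identical copies, and the assignment of fragments among them is uncertain.

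Major urinary proteins, pheromone carriers that adult mouse hepatocytes secrete, rose in 11 of 11 tested members. Their log2 differences ran from 1.93 to 5.03 with a median of 2.48, and 3 passed in libraries 1 and 2 alone. Their summed level was 550.1, 527 and 561 FPKM in treated and 108, 54.8 and 87.6 FPKM in Control libraries. Mup20, named after its values were seen, was the most abundant at 339, 286 and 321 FPKM in treated and 44.7, 44.3 and 51.9 FPKM in Control libraries (log2 difference 2.74 ± 0.12, adjusted p = 2.08e-05). Mup12 was listed at 0 in every Control library and at 4.95, 7.71 and 2.54 FPKM in treated libraries. These genes are a cluster of near-identical copies, and Mup7, at 13.96, 16.3 and 62.2 FPKM, and Mup17, at 28.8, 29.4 and 7.41 FPKM, varied between libraries of the same group, so single members are uncertain.

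**Figure D3:**
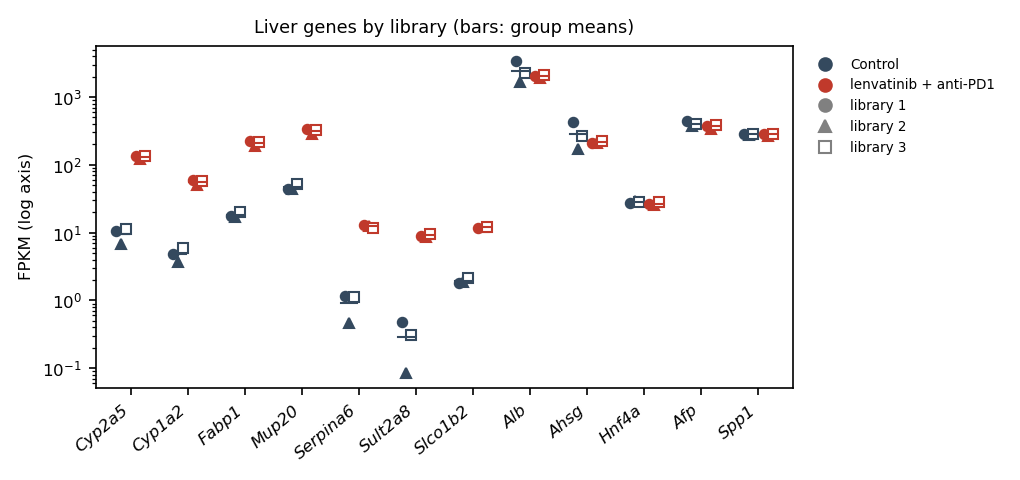
FPKM on a log axis of 12 liver genes in each treated (red) and Control (dark blue) library, with library numbers as circle, triangle and open square and bars at group means. Cyp2a5, Cyp1a2, Fabp1, Mup20, Serpina6, Sult2a8 and Slco1b2 lay apart in the groups, while Alb, Ahsg, Hnf4a, Afp and Spp1 overlapped or did not pass.

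Other secreted hepatocyte proteins passed at shares near those of all genes. Of 13 plasma carrier proteins 2 rose (15.4%, against 13.8% of all genes), Serpina6, the corticosteroid-binding globulin, and Serpina7, the thyroxine-binding globulin. Serpina6 was at 13.1, 12.5 and 11.7 FPKM in treated and 1.16, 0.464 and 1.13 FPKM in Control libraries (log2 difference 3.23 ± 0.22, adjusted p = 0.000108), whereas Ahsg, fetuin-A, was at 212, 213 and 223 FPKM and 429, 171 and 267 FPKM (adjusted p = 0.483). The summed level of the 13 was 5208, 4954 and 5322 FPKM in treated and 7237, 3776 and 5014 FPKM in Control libraries, so that Control 1 lay above and Control 2 below all treated libraries. Of 12 apolipoprotein genes Apob rose by 0.56 and Apoa4 fell by 1.29, and of 11 protease inhibitors Serpinc1, antithrombin, rose by 0.96 and Serpina3n fell by 1.72, so that 8.33% and 9.09% of these groups went each way. Without Control 1 the numbers that rose were 6 carriers, 6 apolipoproteins and 6 protease inhibitors, and 1 carrier rose without treated 1, treated 3 or Control 3. Apob, Apoa4, Serpinc1 and Serpina3n all lost their calls without any one treated library or Control 3. Among 15 hepatocyte transcription factors 3 rose (20%, against 13.8% of all genes) and none fell. Nr0b2, the bile acid feedback repressor SHP, rose by 1.93, the bile acid receptor Nr1h4 by 1.01, and Nr2f2 by 0.37.

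Bile acid and transport genes held 7 rises and no fall among 15 tested, with a median log2 difference of 1.05. Slco1b2, the uptake carrier for bile acids and many drugs, was at 11.6, 12.2 and 12.2 FPKM in treated and 1.79, 1.87 and 2.13 FPKM in Control libraries (log2 difference 2.37 ± 0.12, adjusted p = 3.29e-05), and passed in libraries 1 and 2 alone (adjusted p = 0.0307). Slco1a1 rose by 2.04, the bile salt export pump Abcb11 by 1.69, and the sterol exporter Abcg5 by 1.64. Cyp7a1, the rate-limiting enzyme of bile acid synthesis, is also in this list. It was at 2.79, 2.45 and 2.97 FPKM and 2.24, 0.400 and 1.03 FPKM and did not pass (adjusted p = 0.0598). With libraries 1 and 2 alone 1 passed and 7 had an unadjusted p under 0.05 on the higher side. Without Control 1 the rises numbered 12, and without Control 2 there were 2 falls. A minimum mean of 2 FPKM left fewer members tested and 2 rises.

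Amino acid and glucose enzymes went both ways. Arg1, the arginase of the urea cycle and of myeloid cells, fell from 115, 108 and 108 FPKM to 30.6, 34.8 and 34.9 FPKM (log2 difference -1.71 ± 0.10, adjusted p = 5.74e-05), and passed in libraries 1 and 2 alone (adjusted p = 0.0387). Arg2, the mitochondrial arginase, fell further, from 27.2, 25.4 and 25.2 FPKM to 3.39, 3.41 and 3.92 FPKM (log2 difference -2.70 ± 0.10, adjusted p = 1.50e-05), with an adjusted p of 0.0190 in libraries 1 and 2 alone. By the fitted difference Arg2 was 6.49-fold lower in the treated libraries, and neither arginase overlapped between groups. In the urea cycle Ass1 fell by 1.19 and Otc rose by 2.02. Of 17 genes of amino acid breakdown 6 rose and Ahcy fell by 0.60; Hgd, of tyrosine breakdown, and the kynurenine enzyme Kmo rose by 1.74 and 1.42. Those rises were 10 without Control 1, and the falls 3 without Control 2. Of 9 glucose genes 5 rose, among them G6pc, which releases free glucose, by 1.31 and the transporter Slc2a2 by 1.18. Igfbp1, a secreted binding protein of the IGFs, fell from 4040.4, 3424 and 3600.4 FPKM to 1519.7, 1411 and 1563 FPKM (log2 difference -1.30 ± 0.10, adjusted p = 0.000166).

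Complement components rose in 10 of 16 tested and fell in 1, with a median log2 difference of 0.58. They included the lectin Mbl2, by 2.01, and the terminal components C8g and C9, by 1.75 and 1.67. With libraries 1 and 2 alone no complement gene passed and 9 had an unadjusted p under 0.05 on the higher side. C3, the central component, was at 235, 251 and 252 FPKM in treated and 245, 247 and 249 FPKM in Control libraries. Of 17 coagulation genes 4 rose (23.5%, against 13.8% of all genes) and none fell, with the plasma kallikrein gene Klkb1 at 1.71. Without Control 1, 9 coagulation genes rose and 1 fell. Of 20 acute phase genes 4 rose (20%) and 3 fell (15%), against 13.8% and 9.87% of all genes. Saa4 and Crp rose by 2.33 and 1.70, and Lcn2, an iron-binding protein of neutrophils and stressed liver, fell by 1.44. Lbp, which presents bacterial lipopolysaccharide to its receptor and is named after its values were seen, fell from 118, 118 and 116 FPKM to 44.4, 42.97 and 44.3 FPKM (log2 difference -1.41 ± 0.05, adjusted p = 1.50e-05) and passed in libraries 1 and 2 alone (adjusted p = 0.0251). Without Control 1 the rises were 7, and without Control 2 the falls were 6.

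Genes of lipid synthesis rose. Of 20 cholesterol synthesis enzymes 14 rose and none fell, with a median log2 difference of 0.51; in libraries 1 and 2 alone none passed and 11 had an unadjusted p under 0.05 on the higher side. Dhcr7, the last step, rose from 2.07, 3.03 and 2.72 FPKM to 5.85, 5.13 and 5.90 FPKM (log2 difference 0.99 ± 0.12, adjusted p = 0.00139), and Acat2 and Fdps rose by 0.92 and 0.87. Hmgcs1, an early enzyme of the pathway, rose by 0.83, whereas Mvd, a later enzyme, did not pass (adjusted p = 0.983). Of 11 uptake and regulation genes 1 rose and Insig2 fell by 0.75; without Control 1, 3 rose and 3 fell. The sterol element letters TCACNCCAC, searched on both strands, were in 1 of 15 synthesis enzymes with a window (6.67%) and in 1.44% of all genes with one.

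Of 20 genes of fatty acid and triglyceride synthesis 12 rose and none fell, with a median of 0.70; in libraries 1 and 2 alone none passed and 9 had an unadjusted p under 0.05 on the higher side. Scd1, a desaturase, was at 58.3, 222 and 122 FPKM in treated and 39.4, 28.5 and 35.3 FPKM in Control libraries (log2 difference 1.76 ± 0.44, adjusted p = 0.0236). Treated 2 was the highest library and treated 1 the lowest of the treated. The summed level of 12 genes of adipocytes, cells that also make fat, followed the same order, at 52.8, 633 and 287 FPKM in treated and 12.7, 17.8 and 24.4 FPKM in Control libraries. Its part in these rises was not tested; without treated 2 the list held 9 rises, without treated 3 it held 4 and without Control 3 it held 5. Pnpla3, a lipase of lipid droplets, and Dgat2, the last step of triglyceride synthesis, rose by 1.84 and 1.58.

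Fatty acid oxidation and binding genes, targets of the receptor PPAR-alpha, rose in 13 of 29 tested and fell in 2, with a median of 0.44. Fabp1, the liver fatty acid carrier, was at 228, 189 and 214 FPKM in treated and 17.4, 17.04 and 20.3 FPKM in Control libraries (log2 difference 3.49 ± 0.20, adjusted p = 5.06e-05), with an adjusted p of 0.0307 in libraries 1 and 2 alone. The peroxisomal thiolase Acaa1b rose from 1.61, 2.17 and 2.30 FPKM to 19.4, 22.1 and 20.3 FPKM (log2 difference 3.07 ± 0.19, adjusted p = 6.81e-05). For both genes the groups were tight and far apart. Slc27a2, Vnn1 and the factor Creb3l3 rose by 1.69, 1.40 and 1.20. Ppara itself fell by 0.97, at 0.530, 0.954 and 0.553 FPKM in treated and 2.28, 1.51 and 1.62 FPKM in Control libraries, and Cyp4a14, a fatty acid hydroxylase, fell by 1.24, a call lost without any one treated library or Control 3 and in the fit of the 6 libraries. Cpt1a, the gate of mitochondrial oxidation, did not pass, at -0.31.

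Proliferation genes rose slightly. Of 20 replication genes 11 rose and none fell, with a median log2 difference of 0.41, and of 20 mitosis genes 7 rose and none fell, with a median of 0.25. In libraries 1 and 2 alone none passed, and 8 and 2 had an unadjusted p under 0.05 on the higher side. Cdc6, which licenses replication origins, rose from 1.62, 1.90 and 1.92 FPKM to 3.75, 3.72 and 3.78 FPKM (log2 difference 0.88 ± 0.12, adjusted p = 0.00194), and Uhrf1 by 0.83. Mki67, the marker of cycling cells, was at 20.8, 20.00 and 20.4 FPKM in treated and 15.4, 14.5 and 15.3 FPKM in Control libraries (log2 difference 0.42 ± 0.12, adjusted p = 0.0323), a small difference without overlap. The mitosis count was 1 with median-of-ratios scaling, 0 without treated 3, 2 without treated 1, Control 2 or Control 3, and 3 without treated 2 or Co+Len@OVA+anti-PD1 library 3; the replication count was 7 without treated 1 and 6 without treated 3.

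Targets of p53 rose in 3 and fell in 3 of 16 tested (18.8% each, against 13.8% and 9.87% of all genes), with a median of 0.15. Trp53inp1 fell from 42.1, 35.3 and 37.4 FPKM to 16.01, 15.7 and 17.3 FPKM (log2 difference -1.20 ± 0.09, adjusted p = 0.000138), the death gene Pmaip1 by 0.95 and the cell cycle inhibitor Cdkn1a by 0.76. Trp53 itself rose by 0.72. Mdm2, which degrades p53, did not pass, at 0.18. Of 15 apoptosis genes 3 rose (20%), with Bid at 0.81, and 4 fell (26.7%), with the survival genes Bcl2l1 at -0.73 and Mcl1 at -0.39. Without any one of the treated libraries, Control 3 or Co+Len@OVA+anti-PD1 library 3, 2 of the 4 falls were left.

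Oncofetal genes fell in 4 of 16 tested (25%, against 9.87% of all genes) and rose in 2 (12.5%, against 13.8%). Those that fell were Igf2bp2, Krt19, Cd24a and Sox9, by 0.76, 0.76, 0.58 and 0.57. Krt19 and Sox9 also mark bile duct cells and progenitors, and Krt19 was at 101, 95.9 and 101 FPKM in treated and 197, 147 and 163 FPKM in Control libraries. Tspan8 and Igf2bp1 rose by 0.27 and 0.36, neither without treated 3 or Control 3 or with median-of-ratios scaling, and 1 of them without Control 1, Control 2 or Co+Len@OVA+anti-PD1 library 3. Of 15 Wnt targets 3 rose (20%, against 13.8% of all genes) and none fell. Rhbg, an ammonium carrier of pericentral hepatocytes, rose by 1.19, with Axin2 at 0.41 and Ccnd1. The 3 rises became 1 without treated 1, treated 3, Control 2 or Control 3 and 6 without Control 1. Of 15 YAP and TGF-beta targets 5 fell, among them Ccn2, connective tissue growth factor, which fell from 153, 123 and 135 FPKM to 60.3, 61.8 and 65.2 FPKM (log2 difference -1.12 ± 0.13, adjusted p = 0.00114). That count was 2 without treated 1, treated 3 or Control 3 and 3 without Control 2; the list also held 2 rises, none without treated 3 or Control 3.

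Interferon gamma targets rose. Of 12 chemokine, enzyme and factor genes of this response 7 rose and none fell, with a median log2 difference of 1.00, and all 7 rose at an unadjusted p under 0.05 in libraries 1 and 2 alone, where 1 passed; without Control 1, 2 members fell. Ido1, which breaks down tryptophan and restrains T cells, was at 23.7, 23.5 and 25.6 FPKM in treated and 4.21, 4.90 and 6.17 FPKM in Control libraries (log2 difference 2.16 ± 0.13, adjusted p = 5.74e-05); its adjusted p in libraries 1 and 2 alone was 0.0251. Ubd, a ubiquitin-like tag, rose from 4.33, 9.87 and 9.28 FPKM to 44.01, 39.9 and 44.2 FPKM (log2 difference 2.45 ± 0.26, adjusted p = 0.000694), and Cxcl10, a chemokine that draws T cells, from 11.6, 27.8 and 24.4 FPKM to 97.6, 85.8 and 94.9 FPKM (log2 difference 2.19 ± 0.29, adjusted p = 0.00190). In each of these 3 genes the lowest treated library was over 2-fold above the highest Control library. Ifng itself rose from 0.433, 1.57 and 1.09 FPKM to 3.10, 3.30 and 2.90 FPKM (log2 difference 1.31 ± 0.26, adjusted p = 0.00979), while Jak2, a kinase of its receptor, fell by 0.84. These were the only calls among 5 interferon and receptor genes (20% each, against 13.8% and 9.87% of all genes), whose median was -0.27. In that group 3 genes fell with median-of-ratios, upper quartile or trimmed mean scaling, and 4 without Control 1. Cd274, which encodes the PD1 ligand, was at 13.2, 11.9 and 13.7 FPKM and 9.55, 18.7 and 15.6 FPKM and did not pass (adjusted p = 0.711), nor did Nos2 at -1.04.

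Interferon-inducible GTPases, which attack vacuoles of intracellular pathogens, rose in 8 of 19 tested, with a median of 0.96; in libraries 1 and 2 alone none passed and 8 had an unadjusted p under 0.05 on the higher side. Gbp10 rose from 4.07, 6.39 and 6.27 FPKM to 18.3, 17.6 and 18.9 FPKM (log2 difference 1.65 ± 0.14, adjusted p = 0.000310), Igtp from 31.5, 53.3 and 50.3 FPKM to 102, 92.5 and 103 FPKM (log2 difference 1.17 ± 0.18, adjusted p = 0.00325), and Irgm2 from 5.89, 17.9 and 15.2 FPKM to 28.9, 25.5 and 28.7 FPKM (log2 difference 1.20 ± 0.34, adjusted p = 0.0382). Control 1 was the lowest library for each. The count was 13 without Control 1, 14 without Control 2 and 5 without treated 3. Guanylate-binding proteins are near-identical copies, and the split of fragments among them is uncertain.

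The promoters of Igtp, Irgm2 and Cxcl10 are shown because the letters GAAA followed 2 bases later by GAAA, the core of the interferon-stimulated response element, occur 1 time in each, in capitals. The windows are RefSeq GRCm38.p6, Igtp at chr11:58199306-58199605 and Irgm2 at chr11:58214727-58215026, both on the plus strand, and Cxcl10 at chr5:92348840-92349139 on the minus strand.
Igtp: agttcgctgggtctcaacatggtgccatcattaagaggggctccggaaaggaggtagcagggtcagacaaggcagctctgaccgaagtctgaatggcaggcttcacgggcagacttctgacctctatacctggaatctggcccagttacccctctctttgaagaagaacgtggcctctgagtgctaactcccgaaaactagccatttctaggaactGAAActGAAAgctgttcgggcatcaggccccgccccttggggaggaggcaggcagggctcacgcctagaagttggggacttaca
Irgm2: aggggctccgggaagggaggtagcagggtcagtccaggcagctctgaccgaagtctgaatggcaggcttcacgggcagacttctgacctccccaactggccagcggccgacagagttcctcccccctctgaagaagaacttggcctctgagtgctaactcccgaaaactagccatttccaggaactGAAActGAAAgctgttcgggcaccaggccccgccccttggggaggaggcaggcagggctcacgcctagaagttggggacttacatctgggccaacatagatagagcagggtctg
Cxcl10: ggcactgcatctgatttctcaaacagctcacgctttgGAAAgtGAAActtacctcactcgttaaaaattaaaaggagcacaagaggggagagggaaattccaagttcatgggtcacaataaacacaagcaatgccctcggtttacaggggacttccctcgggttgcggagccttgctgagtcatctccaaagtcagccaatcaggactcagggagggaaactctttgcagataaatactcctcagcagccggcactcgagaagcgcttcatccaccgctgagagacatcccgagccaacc
On either strand these letters were in 10 of 11 GTPase genes with a window (90.9%), 5 of which rose. They were also in 13 of 24 type I interferon genes (54.2%) and in 3.99% of all genes with a window. Igtp and Irgm2 share the capitals and the bases around them, and the match lies 34 and 64 bases before the start site in these genes and 213 before it in Cxcl10.

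Type I interferon response genes rose in 14 of 34 tested and fell in none, with a median of 0.43. Zbp1, a sensor of unusual nucleic acids, and Ifi44 rose by 1.65 and 1.16. The antiviral genes Ifit1 and Ifit2 did not pass, at 0.29 and -0.84. The count was 7 without treated 2 or treated 3, 8 without Control 3 or Co+Len@OVA+anti-PD1 library 3 and 9 without treated 1, and 3 members fell without Control 1. In libraries 1 and 2 alone none passed and 10 had an unadjusted p under 0.05 on the higher side.

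**Figure D4:**
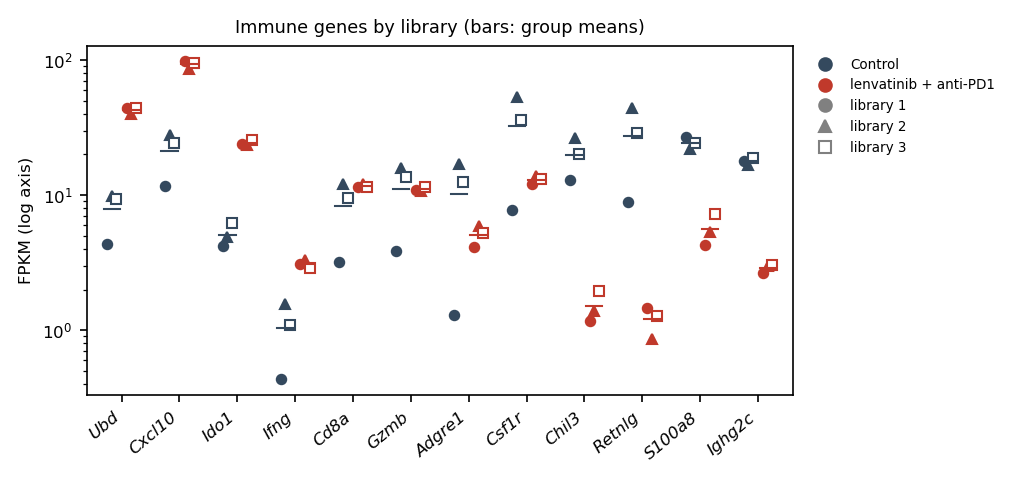
FPKM on a log axis of interferon, T cell, macrophage, monocyte, neutrophil and antibody genes in each treated (red) and Control (dark blue) library, with library numbers as circle, triangle and open square and bars at group means. Interferon targets lay higher in treated libraries; Cd8a, Gzmb, Adgre1 and Csf1r were lowest in Control 1, and Chil3, Retnlg, S100a8 and Ighg2c lay lower in all treated libraries.

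Antigen presentation genes of class I rose in 9 of 22 tested, with a median of 0.23, and Calr, a chaperone also counted above, fell by 0.37. The proteasome activator Psme2 rose by 0.90 and the immunoproteasome subunits Psmb9 and Psmb10 by 0.82 and 0.66, while the heavy chain genes H2-K1 and H2-D1 were at -0.09 and -0.08 and did not pass. The count was 3 without treated 3 and 5 without treated 1, treated 2, Control 3 or Co+Len@OVA+anti-PD1 library 3. None of 11 class II genes passed (0 also at an unadjusted p under 0.05 in libraries 1 and 2 alone), and 7 fell without Control 1. Their summed level was 1734, 1746 and 1781 FPKM in treated and 1163, 3622 and 2823 FPKM in Control libraries.

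Core T cell genes did not pass the test. None of 19 genes of the T cell receptor complex and co-receptors passed (0 also at an unadjusted p under 0.05 in libraries 1 and 2 alone), with a median log2 difference of 0.29. Cd8a, the co-receptor of killer T cells, was at 11.5, 12.2 and 11.5 FPKM in treated and 3.22, 12.1 and 9.53 FPKM in Control libraries (adjusted p = 0.267), and Gzmb, their granule protease, at 10.95, 10.7 and 11.5 FPKM and 3.84, 15.8 and 13.6 FPKM (adjusted p = 0.766). Control 1 was the lowest library for both, and the treated values lay within the range of the Control libraries for Gzmb. The summed level of the 19 genes was 142, 138 and 145 FPKM in treated and 43.4, 165 and 127 FPKM in Control libraries; without Control 1, 2 of them fell. Among 10 cytotoxic genes 1 rose (10%, against 13.8% of all genes) and none fell. Ccl4, a chemokine of activated T cells and macrophages, rose from 2.83, 6.23 and 5.30 FPKM to 14.6, 13.7 and 14.1 FPKM (log2 difference 1.53 ± 0.22, adjusted p = 0.00283). Of the cytotoxic genes 3 rose without Control 1 and 2 without Control 2. Of 17 regulatory and checkpoint genes 3 fell (17.6%, against 9.87% of all genes) and none rose. Tox, the exhaustion factor, fell by 1.12, Ctla4 by 0.77 and Tigit by 0.58, and 10 fell without Control 1. Pdcd1, which encodes PD1, was at 11.6, 10.5 and 12.5 FPKM and 3.48, 14.6 and 12.4 FPKM and did not pass (adjusted p = 0.559), nor did Foxp3, the regulatory T cell factor (adjusted p = 0.752).

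Antibody genes fell. Of 13 plasma cell genes 6 fell and none rose, with a median of -0.63; in libraries 1 and 2 alone 1 passed and 5 had an unadjusted p under 0.05 on the lower side. Ighg2c, an IgG heavy chain, was at 2.63, 2.98 and 3.01 FPKM in treated and 17.9, 16.8 and 18.8 FPKM in Control libraries (log2 difference -2.44 ± 0.32, adjusted p = 0.00183), and Ighg1 at 1.12, 1.35 and 1.44 FPKM and 5.15, 5.45 and 5.22 FPKM (log2 difference -1.68 ± 0.09, adjusted p = 3.16e-05), which passed in libraries 1 and 2 alone (adjusted p = 0.0307). Igkc, the kappa constant region, fell by 1.13 and Igha by 1.69. Jchain and Mzb1, defining genes of plasma cells, were low and did not pass, at 0.945, 2.21 and 1.86 FPKM against 1.97, 2.96 and 2.49 FPKM for Jchain. None of 5 B cell genes passed, and Cd79a was at 0.966, 0.547 and 0.410 FPKM and 0.895, 1.23 and 1.31 FPKM.

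Neutrophil genes fell. Of 24 granule and surface genes 15 fell and 1 rose, with a median log2 difference of -1.23, and 13 fell at an unadjusted p under 0.05 in libraries 1 and 2 alone, where none passed after adjustment. Retnlg, a secreted product of neutrophils, was at 1.47, 0.867 and 1.28 FPKM in treated and 8.93, 44.3 and 28.99 FPKM in Control libraries (log2 difference -3.78 ± 0.49, adjusted p = 0.00177), and Ngp, a granule protein of their precursors, at 2.80, 3.44 and 3.04 FPKM and 21.01, 20.4 and 19.7 FPKM (log2 difference -2.54 ± 0.37, adjusted p = 0.00266). Ngp was even within groups, whereas Control 1 was the lowest Control library for Retnlg by a wide margin. The decoy receptor Il1r2 and the calcium-binding S100a8 fell by 2.42 and 2.05. Padi4, which modifies histones in extracellular traps, rose by 0.59. Csf3r, the neutrophil growth factor receptor, was at 2.08, 2.56 and 2.59 FPKM and 2.29, 5.29 and 4.64 FPKM and did not pass. With a minimum mean of 2 FPKM fewer members were tested and 9 fell.

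The count of macrophage genes that fell depended on Control 1. The monocyte group held 2 falls (16.7%), Chil3 and Plac8, and 1 rise (8.33%) among 12 tested, against 9.87% and 13.8% of all genes. Without Control 1 it held 6 falls and no rise. Chil3, a chitinase-like protein of monocytes and alternatively activated macrophages, fell from 12.9, 26.6 and 20.2 FPKM to 1.17, 1.38 and 1.96 FPKM (log2 difference -3.31 ± 0.28, adjusted p = 0.000268). Plac8, also of monocytes, fell from 83.2, 86.5 and 81.96 FPKM to 37.9, 34.5 and 36.4 FPKM (log2 difference -1.20 ± 0.06, adjusted p = 2.37e-05) and passed in libraries 1 and 2 alone (adjusted p = 0.0318). Of 16 pan-macrophage genes 3 fell, Itgam, Fcgr3 and Cd14, by 1.59, 1.40 and 0.89, with a median of -0.75; the number was 13 without Control 1 and 1 without Control 2, Control 3, any one treated library or Co+Len@OVA+anti-PD1 library 3. Adgre1, the F4/80 antigen, was at 4.11, 5.93 and 5.28 FPKM in treated and 1.30, 17.1 and 12.4 FPKM in Control libraries (adjusted p = 0.721), and Csf1r at 11.99, 13.8 and 13.05 FPKM and 7.80, 52.99 and 36.2 FPKM (adjusted p = 0.292). For both, treated libraries lay above Control 1 and below the other Control libraries. The summed level of the 16 was 539, 637 and 592 FPKM in treated and 389, 1557 and 1188 FPKM in Control libraries, and the part of that spread in the other myeloid results was not tested.

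Markers of macrophage state went both ways with all libraries. Of 17 genes of alternative activation and lipid handling 6 fell (35.3%) and 1 rose (5.88%), with a median of -0.26. Those that fell were Arg1, the chemokine Ccl17 by 1.51, Gpnmb by 1.17, Lgals3 by 1.00, and Cd9 and Fabp5 by 0.54 and 0.26. Without Control 1, 9 fell and none rose, with a median of -1.10. Arg1 is also counted above in the urea cycle and, unlike Adgre1, was not lowest in Control 1. Which cells expressed Arg1 was not tested. Folr2 rose by 0.98, a call lost without treated 2, treated 3, any one Control library or Co+Len@OVA+anti-PD1 library 3 and with the replicate block. Of 12 pro-inflammatory genes 5 rose and none fell, and all 5 rose at an unadjusted p under 0.05 in libraries 1 and 2 alone; 3 fell without Control 1. Besides Ccl4 they were Ccl3, at 13.5, 11.00 and 12.5 FPKM in treated and 2.95, 7.19 and 4.97 FPKM in Control libraries (log2 difference 1.28 ± 0.25, adjusted p = 0.00910), Tnf by 1.16, Il1b by 0.98 and Il18 by 0.53. Of 8 genes of Kupffer cells, the resident macrophages of liver, 2 rose (25%, against 13.8% of all genes) and none fell. Clec4f rose from 2.72, 3.51 and 3.30 FPKM to 8.22, 7.65 and 8.31 FPKM (log2 difference 1.22 ± 0.12, adjusted p = 0.000436), and Vsig4 rose by 0.75. Timd4 was at 0.648, 0.646 and 0.870 FPKM and 0.220, 0.571 and 0.499 FPKM and did not pass. Of 12 dendritic cell genes Xcr1, the chemokine receptor of cross-presenting cells, rose by 0.78 and Bst2, also an interferon target, by 1.00. That share of rises, 16.7%, was near the 13.8% of all genes. The Kupffer rises became 1 without treated 2 or treated 3 and in the fit of the 6 libraries. Without Control 1, 3 Kupffer genes rose and 1 fell. The dendritic cell rises became 1 without treated 1, treated 3 or Control 3, with the replicate block and with a minimum mean of 2 FPKM; without Control 1, 3 dendritic cell genes fell. None of 6 mast cell, basophil and eosinophil genes passed (0 at an unadjusted p under 0.05 in libraries 1 and 2 alone), and 2 fell without Control 1.

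Mitochondrially encoded mRNAs rose in 9 of 13, with a median log2 difference of 0.94; in libraries 1 and 2 alone none passed and 9 had an unadjusted p under 0.05 on the higher side. All genes with a symbol starting with mt-, these mRNAs among them, made up 16.3% to 17.9% of total FPKM in treated and 11.1% to 13.2% in Control libraries. The complex I subunit mt-Nd3 was at 820.4, 767 and 775 FPKM in treated and 313, 265 and 294 FPKM in Control libraries (log2 difference 1.44 ± 0.11, adjusted p = 0.000180), and mt-Nd6 rose by 1.32. The cytochrome oxidase subunit mt-Co1 was at 15255, 17363 and 16332 FPKM and 15447, 11431 and 13015 FPKM and did not pass (adjusted p = 0.0864). Of 27 nuclear subunits of oxidative phosphorylation 6 rose and none fell, with Cycs, cytochrome c, at 0.73, and 3 rose without treated 2, treated 3 or Control 3. Of 30 cytosolic ribosomal protein genes 7 fell and none rose, with a median of -0.21 and the largest fall in Rpl3, by 0.40; the count was 1 without treated 2, and 3 without treated 3, Control 3 or Co+Len@OVA+anti-PD1 library 3 and with median-of-ratios or trimmed mean scaling.

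Metallothioneins fell. Of 12 tested iron and metal genes 5 fell and 1 rose, with a median log2 difference of 0.02. Mt1, a zinc and copper buffer of hepatocytes, was at 169, 155 and 164 FPKM in treated and 991, 418 and 602 FPKM in Control libraries (log2 difference -1.95 ± 0.26, adjusted p = 0.00197), and Mt2 fell by 1.85. The zinc transporters Slc39a14 and Slc30a1 fell by 0.57 and 0.30, as did ferritin heavy chain, Fth1, from 627, 617 and 622 FPKM to 382, 400.3 and 399 FPKM (log2 difference -0.66 ± 0.07, adjusted p = 0.000617). Tmprss6, a protease that holds down the iron hormone hepcidin, rose by 0.33, a call lost without treated 1, treated 3 or Control 3 and with median-of-ratios scaling. Targets of NRF2, the regulator of antioxidant genes, rose in 6 and fell in 2 of 15: Gpx2 and Srxn1 rose by 0.88 and 0.65, and Gclc and G6pdx fell by 0.65 and 0.45, 1 of them without treated 2, treated 3 or Control 3. Hmox1, heme oxygenase, was at 43.8, 44.2 and 50.9 FPKM and 43.6, 96.5 and 89.7 FPKM and did not pass (adjusted p = 0.122). Of 15 heat shock genes 6 rose and none fell, led by Hsph1 at 1.00, and 3 rose without treated 1 or treated 3.

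Genes of neighbouring tissue differed by library. The summed level of 28 skeletal and heart muscle genes was 90.8, 7086 and 2855 FPKM in treated and 40.2, 39.9 and 106 FPKM in Control libraries. Acta1, skeletal actin, was at 10.9, 1742 and 697 FPKM and 0.0410, 1.03 and 17.1 FPKM. Of 27 tested members 14 rose, but none did without treated 2, treated 3, Control 1, Control 2 or Co+Len@OVA+anti-PD1 library 3, 27 did without treated 1, 5 without Control 3 and 1 without Co+Len@OVA+anti-PD1 library 1 or 2. Of 11 adipocyte genes Car3 and Cfd rose, 10 rose without treated 1, and 1 without treated 2, treated 3, any one Control library or Co+Len@OVA+anti-PD1 library 1 or 3. None of 10 keratinocyte and none of 10 neural genes passed (1 and 0 at an unadjusted p under 0.05 in libraries 1 and 2 alone); the summed level of the keratinocyte genes ran from 5.46 to 428 FPKM over these 6 libraries. Of 9 cholangiocyte genes 4 fell, with Tff2 by 1.36; 1 fell without Control 3, any one treated library or Co+Len@OVA+anti-PD1 library 3, and 2 without Control 1. Of 9 erythroid and platelet genes Epor fell by 0.60, and none fell without any one treated library, Control 2, Control 3 or Co+Len@OVA+anti-PD1 library 3, with a pseudocount of 0.1 or after rescaling without mitochondrial genes; with the replicate block 4 others fell and Epor did not pass. The hemoglobin genes Hba-a1 and Hba-a2 did not pass. The part of neighbouring tissue in other results was not tested beyond the values above. None of these lists separates normal liver taken with a tumour piece from tumour cells. Its part in the hepatocyte and Kupffer genes was not tested.

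**Figure D5:**
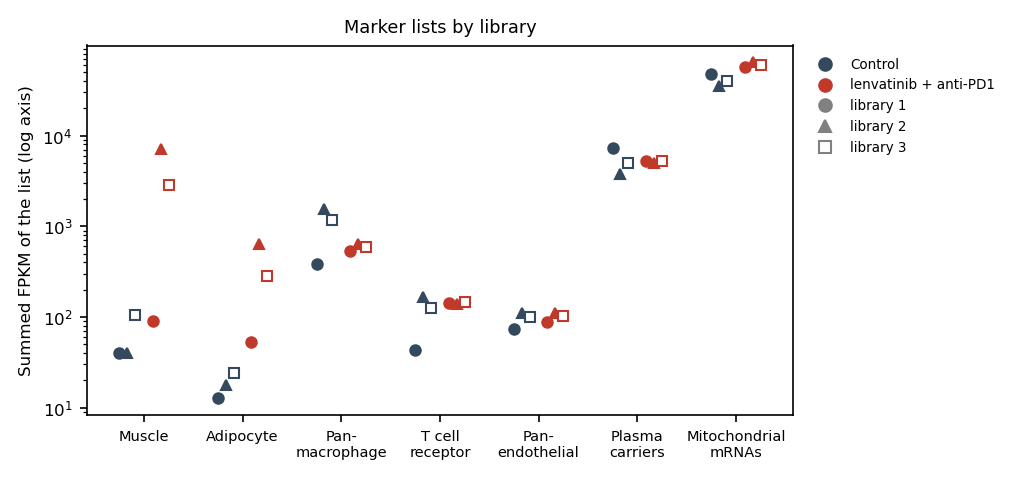
Summed FPKM on a log axis of marker lists for muscle, adipocytes, macrophages, T cells, endothelium, plasma carriers and mitochondrial mRNAs in each treated (red) and Control (dark blue) library, with library numbers as circle, triangle and open square. Muscle and adipocyte sums separated treated 2 and 3 from treated 1, and macrophage and T cell sums separated Control 1 from Control 2 and 3.

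Among genes with a mean log2 value of at least 2 and no overlap between groups, the 12 largest rises included many hepatocyte genes. Besides Cyp2a5, Cyp1a2, Fabp1, Serpina6, Acaa1b and Mup7 they included Nat8f2, an acetyltransferase-like gene, at 21.96, 18.9 and 24.3 FPKM in treated and 1.48, 1.53 and 1.74 FPKM in Control libraries (log2 difference 3.41 ± 0.17, adjusted p = 2.67e-05), and Akr1c6, a steroid dehydrogenase, at 48.98, 45.7 and 50.2 FPKM and 7.08, 4.75 and 6.30 FPKM (log2 difference 2.92 ± 0.16, adjusted p = 4.19e-05). Both passed in libraries 1 and 2 alone (adjusted p = 0.0190 and 0.0307). Mup22 and the unnamed gene Gm7413 rose by 3.57 and 3.43. Car3 and Casq1, genes of fat and muscle, completed the set and followed the muscle order, with Casq1 at 1.51, 123 and 50.6 FPKM.

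Under the same conditions the 12 largest falls were of several kinds. Fam107a, a stress-regulated actin binder, was at 0.418, 0.948 and 0.749 FPKM in treated and 14.8, 14.00 and 14.2 FPKM in Control libraries (log2 difference -3.65 ± 0.50, adjusted p = 0.00211). Arl4d, a small GTPase, fell from 116, 56.5 and 71.7 FPKM to 12.4, 13.7 and 14.2 FPKM (log2 difference -2.49 ± 0.23, adjusted p = 0.000399), and Mmp7, a protease of ductal and tumour epithelium, by 2.38. Gprc6a, a receptor for amino acids, fell from 14.4, 14.1 and 13.2 FPKM to 2.66, 2.57 and 2.33 FPKM (log2 difference -2.25 ± 0.11, adjusted p = 2.65e-05), and the keratin Krt20 from 178, 117 and 137 FPKM to 34.9, 32.1 and 33.3 FPKM (log2 difference -2.07 ± 0.13, adjusted p = 7.80e-05). Gprc6a and Krt20 passed in libraries 1 and 2 alone (adjusted p = 0.0288 and 0.0469). Tff1, a secreted trefoil peptide, fell by 2.35, and the rest were Arg2, Chil3, Retnlg, Ngp, Il1r2 and Ighg2c.

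Against Co+Len@OVA+anti-PD1, with the same antibody, 4507 genes differed (29.4%), and 365 in libraries 1 and 2 alone. The number was 2381 without Co+Len@OVA+anti-PD1 library 3, 2900 without treated 1 and 2525 without treated 3. Cyp2a5 was at 2.63, 2.96 and 3.22 FPKM in Co+Len@OVA+anti-PD1, 5.26 above it on the log2 scale in the lenvatinib group (adjusted p = 1.35e-06), and Fabp1 at 3.25, 6.25 and 5.25 FPKM, a difference of 5.32 (adjusted p = 2.74e-06). Both lay below Control as well as below the lenvatinib group. Cd8a was at 42.4, 30.4 and 35.4 FPKM there, a difference of -1.57 (adjusted p = 0.0211), and Gzmb at 46.9, 67.7 and 56.4 FPKM, a difference of -2.30 (adjusted p = 0.00720). Ido1 was at 28.7, 22.96 and 25.9 FPKM, a level that overlapped that of the lenvatinib group (difference -0.08, adjusted p = 0.658). Ddit4 was at 129.9, 111 and 122 FPKM (0.13, adjusted p = 0.600) and Adm at 2.83, 2.41 and 2.80 FPKM (-1.06, adjusted p = 0.000278). These comparisons share the lenvatinib libraries with those against Control.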

How the data were processed

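RNA of 9 mouse tumour libraries, 3 from each of 3 groups, was sequenced after poly(A) selection. The authors deposited 1 table of values whose columns are named FPKM; it is presented as raw counts, but per the file headers and the values, which are not whole, it holds FPKM, so no count model was run. Tools listed in the submitters' processing notes are edgeR, fastp and StringTie. No aligner is named there or in the labels, and for the build and the annotation the answer is the same: not given in the sources used here. All value columns had a sample (0 without one), and 133 symbols stand for more than 1 gene.

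Groups came from the sample titles. Values were taken as log2(FPKM + 0.5) where the 9-library mean reached 0.5 FPKM and fitted with limma 3.58.1 in R 4.3.3, with an intensity trend and robust variances over all 3 groups. P-values were adjusted by Benjamini-Hochberg over all tested genes with a threshold of 0.05. The script was tested on simulated data. The comparison and the gene lists were chosen with earlier results of these data known. Genes were named by this rule: the 12 largest rises and 12 largest falls among passing genes without overlap and with a mean log2 value of at least 2, up to 4 passing and 2 not passing genes of each role in a list, and a short list of targets and markers. Ahcy, Ahsg, Bnip3, Calr, Cd9, Cebpb, Cyp1b1, Cyp2e1, Fabp5, Folr2, G6pdx, Hsp90b1, Igf2bp1, Igkc, Il18, Nrp2, Padi4, Por, Slc30a1, Slc7a5, Sult1a1, Sult1d1, Tmprss6 and Tspan8 fall outside it and were chosen after their values were seen. Alternatives were other scalings, pseudocounts, filters and variance models, the 6 libraries alone, a replicate block, a 2-fold minimum, libraries 1 and 2 alone, and leaving out each library. Some members of the lists are not reported here by name. Promoter windows came from RefSeq (GRCm38.p6), matched by symbol; coordinates are those of that table, not of the deposited values.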

Additional observations from a re-analysis of the deposited data

How the results depend on the processing

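The 3636 genes changed between treated and Control libraries numbered 2976 to 3789 under other scalings, pseudocounts, filters, a plain variance model and the fit of the 6 libraries alone. The split of 2120 higher and 1516 lower became 1821 and 1835 with median-of-ratios scaling. With a 2-fold minimum 76 genes passed, 52 higher and 24 lower, and the 53 genes of libraries 1 and 2 alone split into 33 and 20. Leaving out 1 library gave 1957 to 5053 genes changed, 1061 to 2374 higher and 835 to 2679 lower. The lowest total came without treated 3 and the highest without Control 1. For Lenvatinib+anti-PD1 against Co+Len@OVA+anti-PD1 the 4507 genes became 365 with libraries 1 and 2 alone and 2381 to 6592 with 1 library left out. The cause of these shifts was not tested, beyond the smaller number of samples. Of 486 genes followed singly, none reversed among the alternatives that could test it, all of which reuse the same libraries. With libraries 1 and 2 alone 251 of them no longer passed, with a 2-fold minimum 245, and without treated 3, 83.

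With the replicate block 2753 genes changed, 1617 higher and 1136 lower, and 3307 differed from Co+Len@OVA+anti-PD1. Deviations of same-numbered treated and Control libraries correlated at 0.0785, -0.0201 and 0.00724, and those of differently numbered ones at -0.187 to 0.216. The block was set by library number. Whether same-numbered libraries were handled together was not tested, and these values cannot decide it with 3 libraries in a group. Precision is limited by 3 libraries in a group, of which library 3 may not be independent, and by an unknown depth.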

Other observations

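The genes named here were chosen after their values were seen. Carboxylesterases, liver enzymes that split esters of drugs and lipids, rose in 9 of 12 tested and fell in none, with log2 differences from 0.50 to 2.83. Ces2c was at 4.12, 3.33 and 3.22 FPKM in treated and 0.345, 0.435 and 0.356 FPKM in Control libraries (log2 difference 2.20 ± 0.13, adjusted p = 5.68e-05). Apolipoprotein L genes rose in 5 of 8 and fell in none. Apol10b was at 12.3, 11.3 and 13.8 FPKM in treated and 2.04, 2.47 and 3.05 FPKM in Control libraries (log2 difference 2.11 ± 0.14, adjusted p = 7.71e-05), and Apol6 rose by 1.95; the near-identical copies in both families make single members uncertain. With pseudogenes counted, 19 of 19 tested major urinary protein genes rose.

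Further falls concerned single regulatory genes. Fkbp5, a partner of the glucocorticoid receptor, was at 10.1, 11.3 and 11.1 FPKM in treated and 28.5, 31.5 and 30.9 FPKM in Control libraries (log2 difference -1.44 ± 0.07, adjusted p = 2.79e-05). Sgk1, a kinase that governs ion transport, fell from 110.0, 101 and 103 FPKM to 30.3, 33.9 and 32.8 FPKM (log2 difference -1.68 ± 0.06, adjusted p = 1.50e-05). Both passed in libraries 1 and 2 alone (adjusted p = 0.0307 and 0.0251). The clock gene Per1, Zbtb16, Dusp1 and Tsc22d3 fell by 1.28, 1.52, 1.18 and 1.37 on the log2 scale. Of 13 Kruppel-like factors 7 fell, Klf9 by 0.66, and Klf16 rose. Of 16 lysine demethylase genes 8 fell and none rose, with a median log2 difference of -0.19. Over all genes tested 13.8% rose and 9.87% fell. The family counts of this section were not repeated with libraries left out.

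Single genes also passed in both fits. Ampd3, an AMP deaminase, was at 1.13, 0.984 and 1.18 FPKM in treated and 6.23, 6.32 and 6.56 FPKM in Control libraries (log2 difference -2.11 ± 0.08, adjusted p = 1.50e-05). Limk1, a kinase that acts on actin turnover, and Rab31, a small GTPase of vesicle traffic, fell by 1.72 and 1.30, and Fam117b by 1.92. The kappa variable gene Igkv5-48 was listed at 0 in every treated library and at 4.92, 7.33 and 6.59 FPKM in Control libraries.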
